A study of Arabidopsis thaliana with 24 samples.

Results

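The genes described here are 8 Arabidopsis thaliana members of small families of antenna-like plastid proteins: ELIP1 (AT3G22840), ELIP2 (AT4G14690), OHP1 (AT5G02120), OHP2 (AT1G34000), SEP1 (AT4G34190), SEP2 (AT2G21970), LIL3:1 (AT4G17600) and LIL3:2 (AT5G47110). They were chosen by identifier from a table of 33602 genes, and all 8 were among the 32328 genes with values and the 18774 with enough reads to be tested. The libraries were made from polyA RNA of whole 3-day-old seedlings of the Columbia background, grown in darkness. A 3 h pulse of white light at 22 °C started germination, 3 days in darkness at 22 °C followed, and the last 3 h were spent either at 37 °C or still at 22 °C. The 4 groups used are WT at 22 °C, WT at 37 °C, the mutant pif4-101 at 22 °C and pif4-101 at 37 °C, with 3 libraries each, named here by group and by the letter a, b or c of the deposited table. All groups share the light pulse and the darkness. Libraries of the lines that carry PIF4pro:PIF4-3xFlag, in which the tagged protein is under the promoter of PIF4 itself, were not analysed here.

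These proteins belong to the light-harvesting complex superfamily and sit in the thylakoid membrane, but they do not gather light for photosynthesis as the antenna proteins do. The ELIPs are early light-induced proteins: seedlings that first meet light, and leaves under strong light, accumulate them for a short time, and they are thought to hold chlorophyll while the antenna is built or repaired. OHP1 and OHP2 are single-helix proteins that act as a pair and, with HCF244, are needed to make the reaction centre of photosystem II. SEP1 and SEP2 are stress-enhanced proteins with a pair of membrane helices, first described for their induction by strong light. The LIL3 proteins bind the reductase that makes the phytyl tail of chlorophyll and of tocopherol, and keep it in the membrane. Dark-grown seedlings hold etioplasts, which store the chlorophyll precursor protochlorophyllide and have no mature thylakoids, so these genes are read here before greening.

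Unheated libraries held 3234886 to 14791597 reads (WT) and 3176106 to 11099980 (pif4-101), heated ones 3360759 to 8263355 and 5940624 to 10662414. Levels are given in CPM, read counts scaled to a common library size after TMM scaling. At these depths ELIP2, the gene with the fewest reads of the 8, had 7 to 203 reads a library, and ELIP1 had 34 to 957. PIF4 itself (AT2G43010), a transcription factor of light and temperature signalling, stood at 9.98 ± 2.90 CPM (SD, n = 3) in WT and 17.5 ± 6.42 CPM in the libraries labelled pif4 at 22 °C, so its counts do not check that label. Heat was read plainly: all 5 genes of a heat list rose in both genotypes. Of all genes tested, 25.5% in WT and 25.6% in pif4 were called higher with heat. The small heat shock protein HSP18.2 went from 1.11 ± 0.0966 to 43273 ± 5052 CPM in WT. PORA, the protochlorophyllide reductase of etioplasts, stood at 1307 ± 25.1 CPM in WT at 22 °C and 463 ± 174 CPM in WT at 37 °C. With no light-grown library beside them, these levels do not check the dark-grown label. Library a of pif4 at 22 °C stood apart for a pair of the genes described here. It held 21.1 CPM of ELIP1 and 24.2 CPM of ELIP2, against 5.60 to 8.14 CPM for these genes in its replicates. Results that rest on it are given with and without it below. In whole seedlings fewer cells of a type and less RNA per cell cannot be told apart.

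The promoters of ELIP1 and ELIP2 are shown because these close relatives differed most in their heat response among the 4 pairs. Each is the 250 bases before the annotated start of the gene in RefSeq's TAIR10.1, written 5′ to 3′ on the strand of the gene, with matches to the motifs searched in capitals. ELIP1 lies at chr3:8085670-8085919 on the minus strand and ELIP2 at chr4:8417992-8418241 on the plus strand.
ELIP1: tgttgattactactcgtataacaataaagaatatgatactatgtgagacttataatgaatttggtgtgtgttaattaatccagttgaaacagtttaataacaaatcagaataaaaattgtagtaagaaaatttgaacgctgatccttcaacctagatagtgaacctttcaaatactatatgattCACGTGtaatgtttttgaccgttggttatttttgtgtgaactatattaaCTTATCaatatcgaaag
ELIP2: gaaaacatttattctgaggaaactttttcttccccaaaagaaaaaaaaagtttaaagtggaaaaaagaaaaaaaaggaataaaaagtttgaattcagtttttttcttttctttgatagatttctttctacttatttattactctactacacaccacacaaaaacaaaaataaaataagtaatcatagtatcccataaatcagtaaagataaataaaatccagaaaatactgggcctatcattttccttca
The search covered both strands for the heat shock element parts GAANNTTC and TTCNNGAA, the G-box CACGTG, the E-box CACATG and the I-box GATAAG. The ELIP1 window held 1 G-box, CACGTG, at 66 to 61 bases before the start, and 1 I-box, read on the other strand as CTTATC, at 17 to 12 bases before it. The ELIP2 window held none of the 5 motifs. Of 27443 promoters of the same length, 6.49% hold the G-box, 12.3% the I-box and 16.1% at least 1 of the heat shock element parts, so a match is common and is a description only. Among the other members, the OHP1 window held GAAAATTC at 121 to 114 bases and a G-box at 78 to 73 bases before the start, the SEP1 window held TTCCTGAA at 117 to 110 bases, and those of OHP2, SEP2, LIL3:1 and LIL3:2 held none.

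ELIP1 was the gene of the 8 that rose with heat, and it rose in both genotypes. In WT it read 7.81, 5.93 and 6.13 CPM for libraries a, b and c at 22 °C and 140, 96.2 and 138 CPM at 37 °C. Every heated library lay far above every unheated one. The change was 4.28 ± 0.37 (log2 ± SE, 19.4-fold, edgeR quasi-likelihood test with Benjamini-Hochberg adjustment over 18774 genes, adjusted p = 1.57e-07). By size of rise ELIP1 ranked 309th of 18774 genes, with 1.64% of genes above it. In the libraries labelled pif4 it read 21.1, 5.60 and 7.12 CPM at 22 °C and 148, 128 and 133 CPM at 37 °C, a change of 3.73 ± 0.36 (13.3-fold, adjusted p = 5.94e-07). The groups did not overlap there either. Without library a of pif4 at 22 °C the change in pif4 was 4.39.

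ELIP2, which encodes the closest relative of ELIP1, did not follow it. The WT libraries a, b and c read 11.02, 10.2 and 6.22 CPM at 22 °C and 2.98, 4.89 and 5.90 CPM at 37 °C, so every library at 37 °C was below every one at 22 °C, the nearest by a small gap. The difference of -0.92 ± 0.46 missed the threshold (adjusted p = 0.0983). Those labelled pif4 read 24.2, 6.21 and 8.14 CPM at 22 °C and 4.56, 5.47 and 5.07 CPM at 37 °C. ELIP2 fell there (-1.29 ± 0.45, adjusted p = 0.0213), but the call rested on library a at 22 °C: without it the difference was -0.52 (adjusted p = 0.301). Without library a of pif4 at 37 °C the call was also lost, at -1.23 (adjusted p = 0.0593). With library a of pif4 at 22 °C left out, ELIP2 was called in WT at -0.93 (adjusted p = 0.0461). The coding sequences of ELIP1 and ELIP2 were identical at 78.9% of aligned bases and shared no run longer than 26 bases. The treatment of reads that match both genes is not stated in these sources.

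**Figure D1:**
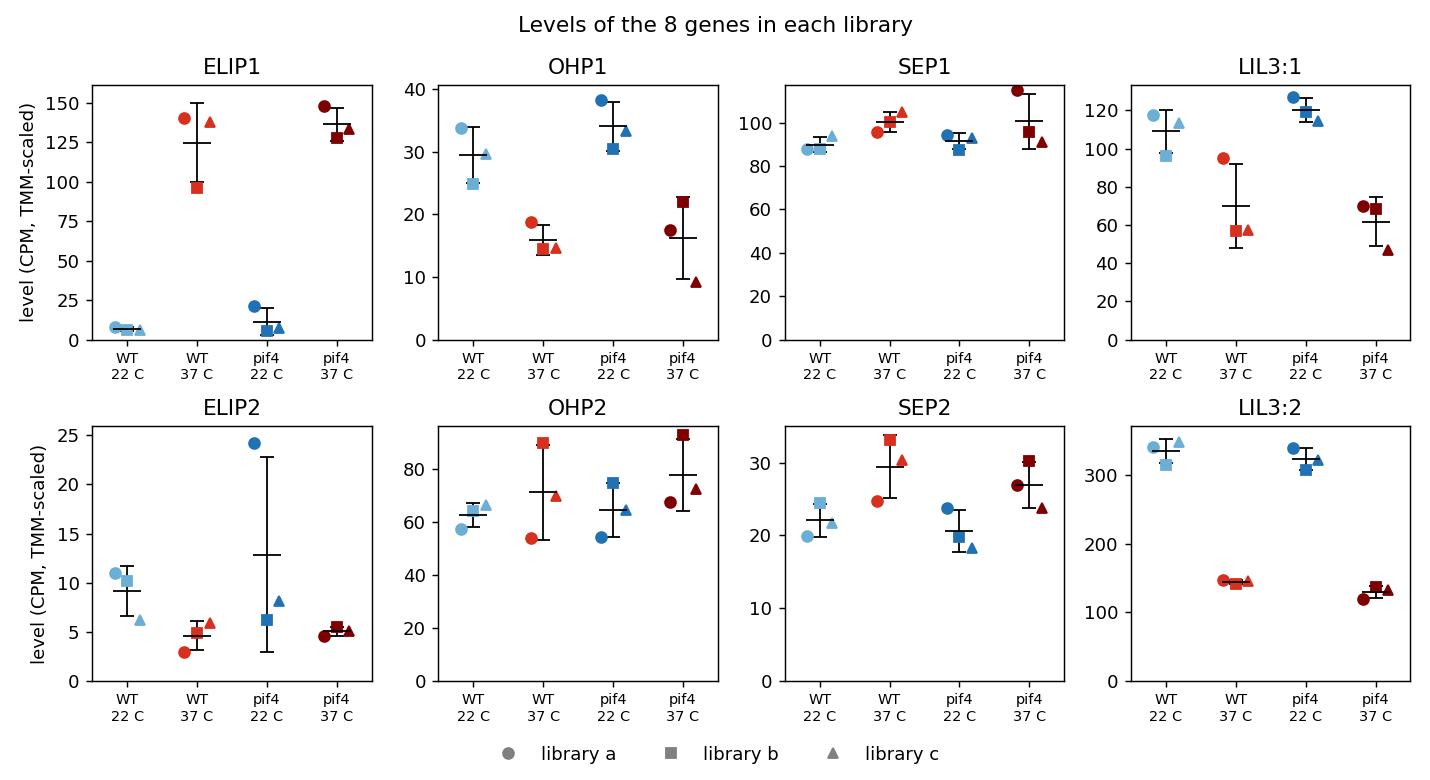
Level of each of the 8 genes (vertical axis, TMM-scaled CPM from 0) in the 12 libraries, by genotype and temperature. Points are libraries a, b and c, the long bar is the group mean and the whiskers 1 SD. ELIP1 rises from 5.60 to 21.1 CPM at 22 °C to 96.2 to 148 CPM at 37 °C, and LIL3:2 lies lower at 37 °C in both genotypes. OHP2 overlaps between temperatures in both genotypes. SEP1 lies slightly higher at 37 °C, without overlap in WT and with overlap in pif4.

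Because the members of a pair were read in the same library, their ratio does not depend on how libraries are scaled. Per kilobase of exon, ELIP1 stood at 0.511 to 0.865 times ELIP2 in WT at 22 °C and at 17.3 to 41.4 times ELIP2 at 37 °C. The order of the pair thus turned from ELIP2 ahead to ELIP1 ahead. In the libraries labelled pif4 the ratio went from 0.764 to 0.792 to 20.5 to 28.5. Library a of pif4 at 22 °C, in which both levels were high, was no exception to this. The ratios were chosen after the values were seen and carry no test.

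OHP1 and OHP2, whose proteins act as a pair, also parted. OHP1 fell in both genotypes, from 33.7, 24.9 and 29.6 to 18.7, 14.5 and 14.7 CPM in WT and from 38.3, 30.4 and 33.3 to 17.5, 21.9 and 9.12 CPM in pif4. No library at 37 °C reached the lowest one at 22 °C. The changes were -0.90 ± 0.26 for WT (adjusted p = 0.00764) and -1.06 ± 0.26 in pif4 (adjusted p = 0.00189). OHP2 read 57.4, 64.1 and 66.3 CPM at 22 °C and 54.0, 89.7 and 69.7 CPM at 37 °C in WT, and 54.3, 74.8 and 64.3 against 67.6, 92.9 and 72.5 CPM in pif4. Its groups overlapped, and its differences of 0.19 ± 0.18 in WT (adjusted p = 0.394) and 0.27 ± 0.18 in pif4 (adjusted p = 0.233) were not called. Per kilobase, OHP1 stood at 0.608 to 0.921 times OHP2 in WT at 22 °C and at 0.253 to 0.543 times at 37 °C. In pif4 the ratio was 0.638 to 1.105 at 22 °C and 0.197 to 0.406 at 37 °C, so here too the temperatures did not overlap. A part of the OHP1 exons, 116 of 526 bases, overlaps NDP1 (AT5G02130) on the opposite strand, which read 7.23 CPM in unheated WT and 3.10 CPM in heated WT. As the use of strand in counting is not known, reads from that stretch cannot be told apart. OHP2 shares 122 of its 824 exon bases with MES14 on the opposite strand, which read 30.8 and 24.8 CPM in WT. MES14 was called lower with heat in pif4 (-0.56, edgeR adjusted p = 0.0285) and was not called in WT (-0.31, edgeR adjusted p = 0.218).

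SEP1 and SEP2 were not called in either genotype. For SEP1, WT read 87.9, 88.0 and 93.8 CPM at 22 °C and 95.7, 100.5 and 104.9 CPM at 37 °C, and pif4 read 87.3 to 94.5 and 91.1 to 115.1 CPM. The WT groups did not overlap, but the difference was only 0.16 ± 0.14 (95% interval -0.12 to 0.44, adjusted p = 0.341). In pif4 it was 0.14 ± 0.14 (-0.15 to 0.42, adjusted p = 0.426). SEP2 stood lower, at 19.97, 24.5 and 21.7 CPM in unheated WT and 24.7, 33.2 and 30.4 CPM with heat. The SEP2 exons share 109 of 907 bases with AT2G21960 on the opposite strand, read at 24.6 and 23.2 CPM in WT. These groups lay side by side without overlap, as did those of pif4, with 23.7, 19.7 and 18.3 CPM at 22 °C and 26.9, 30.2 and 23.8 CPM at 37 °C. The differences of 0.42 ± 0.20 in WT (adjusted p = 0.0849) and 0.40 ± 0.20 in pif4 (adjusted p = 0.102) did not pass the test. The ratio of SEP2 to SEP1 per kilobase overlapped between temperatures, at 0.235 to 0.288 and 0.267 to 0.341 in WT and at 0.204 to 0.260 and 0.242 to 0.326 in pif4.

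Both LIL3 genes fell. LIL3:2, the most abundant of the 8 at 22 °C, went from 342, 315 and 349 to 148, 141 and 145 CPM in WT and from 340, 308 and 322 to 119, 136 and 133 CPM in pif4. No value at 37 °C came near the lowest at 22 °C, and replicates lay close together. It changed by -1.21 ± 0.13 in WT (adjusted p = 9.92e-08) and by -1.32 ± 0.13 in pif4 (adjusted p = 2.97e-08). LIL3:1 went from 118, 96.0 and 113 to 95.2, 57.1 and 57.5 CPM in WT, and from 127, 119 and 114.5 to 70.0, 68.2 and 47.0 CPM in pif4. In WT library a at 37 °C lay just under the lowest library at 22 °C. Its changes were -0.66 ± 0.19 in WT (adjusted p = 0.00753) and -0.96 ± 0.19 in pif4 (adjusted p = 0.000342). With 1 library left out, the WT value ranged from -0.93 (without library a of WT at 37 °C) to -0.53 and stayed called in all 12 cases, at an adjusted p of up to 0.0496. The ratio of LIL3:1 to LIL3:2 per kilobase was 0.223 to 0.252 at 22 °C and 0.290 to 0.472 at 37 °C in WT, while in pif4 0.260 to 0.283 and 0.259 to 0.429 overlapped. The coding sequences were identical at 81.1% of aligned bases, with a longest shared run of 40 bases. Of the 1620 exon bases of LIL3:1, 457 overlap AT4G17610 on the opposite strand, a gene read at 10.99 CPM in unheated WT and 7.05 CPM in heated WT. AT4G17610 was called lower with heat in pif4 (-1.22, edgeR adjusted p = 0.0169) and was not called in WT (-0.64, edgeR adjusted p = 0.197). The part of this overlap in the LIL3:1 values was not tested.

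**Figure D2:**
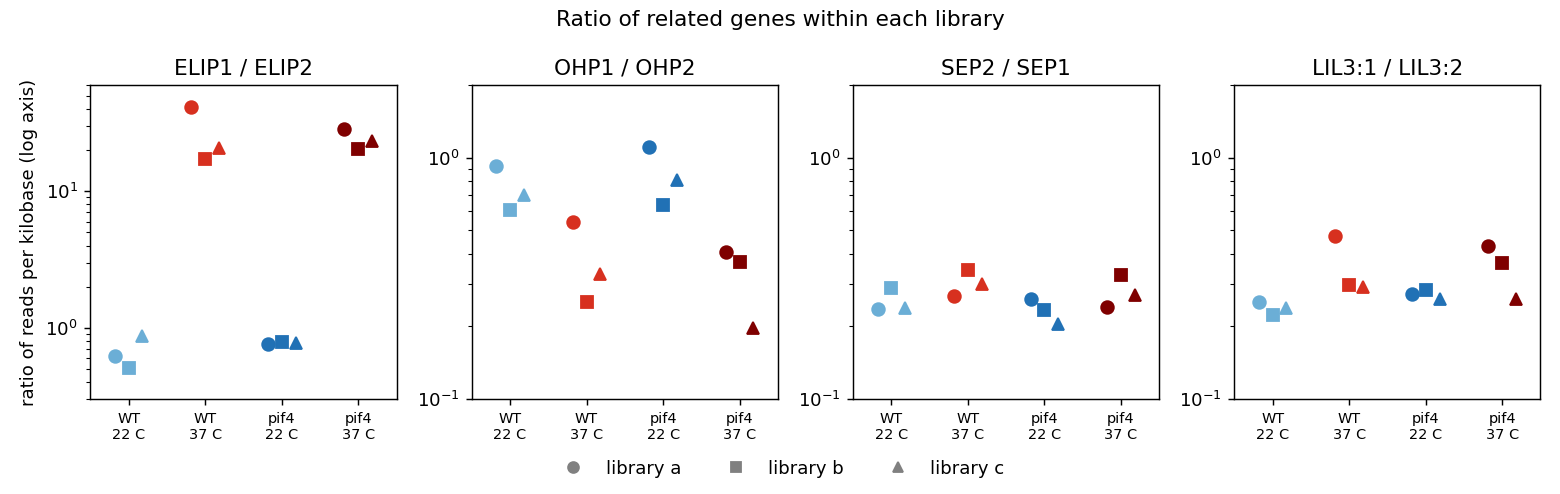
Ratio of reads per kilobase of exon between the genes of each pair (vertical log axis) in the 12 libraries, by genotype and temperature, with points for libraries a, b and c. ELIP1 over ELIP2 goes from 0.511 to 0.865 at 22 °C to 17.3 to 41.4 at 37 °C, OHP1 over OHP2 lies lower at 37 °C, and SEP2 over SEP1 overlaps between temperatures.

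In count, 1 of the 8 genes was called higher and 3 lower with heat in WT, where 25.5% of all genes tested were called higher and 26% lower. In pif4, 1 was higher and 4 lower, against 25.6% and 24.1% of all genes. The median change over the 8 was -0.25 in WT and -0.41 in pif4, beside -0.12 and -0.10 over all genes. With so many genes moving in each direction, these counts are not read as a property of the family.

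Directions other than those of ELIP1, ELIP2, OHP1 and the LIL3 genes depend on the scaling. TMM gave the unheated libraries factors of 1.301 to 1.497 and the heated ones 0.678 to 0.734, and with total counts as library size the median of all genes shifted by -1.02 in WT and -1.03 in pif4. ELIP1 was then called higher (3.24 in WT and 2.72 in pif4) and the other 7 genes lower in both genotypes, where 9.51% and 9.35% of all genes were called higher and 62% lower in each. OHP2 turned to -0.82 in WT and -0.77 in pif4, SEP1 to -0.86 and -0.89, and SEP2 to -0.60 and -0.62. Each of these 3 genes still lay above the median of all genes. ELIP2 in WT became called at -1.93 (adjusted p = 0.000707).

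**Figure D3:**
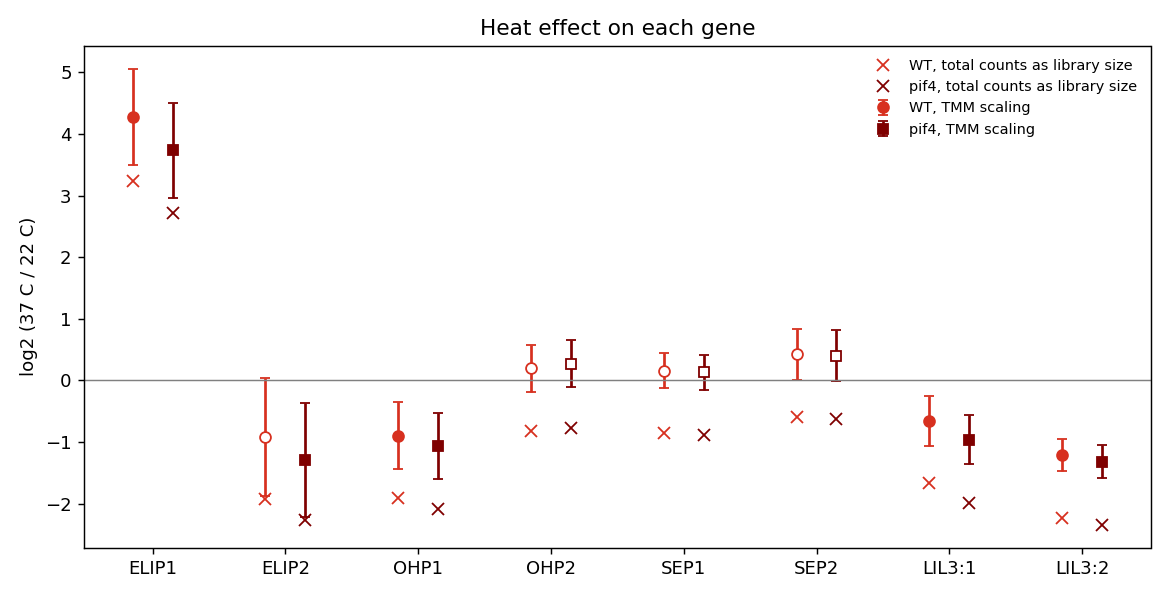
Heat effect on each gene (vertical axis, log2 of 37 °C over 22 °C) in WT and in pif4. Circles and squares are TMM-scaled values with 95% intervals, filled where called at an adjusted p under 0.05, and crosses are the values with total counts as library size. ELIP1 lies at 4.28 and 3.73, the LIL3 genes and OHP1 lie below 0 under both scalings, and OHP2, SEP1 and SEP2 change sign between them.

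Per kilobase of exon the order of the 8 genes changed with heat. In WT at 22 °C it ran from LIL3:2 (283 ± 14.9 CPM per kilobase) through SEP1 (95.8 ± 3.59), OHP2 (76.0 ± 5.64), LIL3:1 (67.3 ± 7.09), OHP1 (55.9 ± 8.44), SEP2 (24.3 ± 2.51) and ELIP2 (10.06 ± 2.82) to ELIP1 (6.40 ± 0.995). Neighbours in this order overlapped for OHP2 with LIL3:1, LIL3:1 with OHP1, and ELIP2 with ELIP1. At 37 °C ELIP1, last at 22 °C, stood at 121 ± 24.0 beside LIL3:2 at 122 ± 2.70, and its range also overlapped that of SEP1 at 107 ± 4.91. OHP2 followed at 86.3 ± 21.7, overlapping SEP1, then LIL3:1 at 43.2 ± 13.5, SEP2 at 32.4 ± 4.78 and OHP1 at 30.3 ± 4.55, which overlapped in turn, and ELIP2 was last at 5.05 ± 1.63. In pif4 the order at 22 °C was the same, with LIL3:2 at 273 ± 13.8 and ELIP1 at 10.9 ± 8.25. At 37 °C ELIP1 led in pif4 at 132 ± 10.06, and its lowest library (123) was above the highest of LIL3:2 (115). Of the summed level per kilobase of the 8 genes, ELIP1 made up 0.929 to 1.20% in WT at 22 °C and 17.4 to 24.5% at 37 °C. LIL3:2 went from 45.2 to 46.1% to 22.0 to 22.5% of that sum.

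None of the 8 genes was called between pif4 and WT at either temperature. At 22 °C 0.0852% of all genes were called (16), and at 37 °C 0.0533% (10). At an unadjusted p under 0.05, and with DESeq2, the count among the 8 was also 0 at both temperatures. Over all 18774 genes, the unadjusted count was 687 at 22 °C and 1988 at 37 °C, and DESeq2 called 91 and 159. At such shares a count of 0 among 8 genes says little about them. The largest difference was that of ELIP1 at 22 °C, 0.67 with a 95% interval of -0.12 to 1.47, which was 0.018 without library a of pif4. ELIP2 differed there by 0.46 (-0.42 to 1.34), and by -0.32 without that library. The other intervals at 22 °C were -0.30 to 0.72 for OHP1, -0.34 to 0.42 for OHP2, -0.26 to 0.31 for SEP1, -0.53 to 0.29 for SEP2, -0.25 to 0.53 for LIL3:1 and -0.31 to 0.20 for LIL3:2. They bound the LIL3:2 and SEP1 differences most tightly and those of the ELIP genes least. At 37 °C the intervals were -0.53 to 0.79 for ELIP1, -0.91 to 1.08 for ELIP2, -0.52 to 0.61 for OHP1, -0.27 to 0.50 for OHP2, -0.28 to 0.28 for SEP1, -0.56 to 0.29 for SEP2, -0.57 to 0.25 for LIL3:1 and -0.42 to 0.10 for LIL3:2.

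The heat effects were compared between genotypes by an interaction term. No member was called (0 also at an unadjusted p under 0.05 and with DESeq2), where 0% of all genes were called, 1025 had an unadjusted p under 0.05 and DESeq2 called 2. The ELIP1 rise differed by -0.54 (pif4 minus WT, 95% interval -1.57 to 0.49), and by 0.12 without library a of pif4 at 22 °C. For ELIP2 the difference was -0.37 (-1.7025 to 0.956), and 0.41 without that library. For LIL3:1 it was -0.30 (-0.87 to 0.26). The narrowest interval, for LIL3:2, ran from -0.47 to 0.26, so a difference of 2-fold in its fall lay outside it in either direction. With all libraries, a heat effect 2-fold lower in pif4 lay inside the intervals of both ELIP genes and one 2-fold higher lay outside. Intervals without library a of pif4 at 22 °C are not given, so a 2-fold higher effect on the ELIP genes is not excluded.

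The high ELIP values of library a of pif4 at 22 °C came with other values that set it apart. The summed level of 20 antenna genes was 5798 CPM there, against 3216 and 3300 CPM in its replicates. For 5 light exposure genes the sum was 25.9 CPM against 14.2 and 17.5 CPM, and for 3 cotyledon genes 5819 against 4785 and 4788 CPM. For 4 root genes it was 310 against 204 and 206 CPM. PORA and PORB, read as markers of the dark-grown state, summed to 3703 CPM against 2945 and 3213 CPM. It was also the library with the fewest reads, 3176106. Library a of WT at 22 °C, the next lowest in reads (3234886), leaned the same way for the antenna genes (4249 CPM, against 3531 and 3571 CPM in its replicates), the light exposure genes (17.0 against 15.1 and 14.9 CPM) and the root genes (275.5 against 226 and 223 CPM), and its ELIP1 and ELIP2 levels of 7.81 and 11.02 CPM were the highest of its group. PORA and PORB summed to 3232 CPM in library a of WT at 22 °C, against 3059 and 3091 CPM in its replicates. At 37 °C library a also had the highest antenna sum, 10762 CPM against 10035 and 10398 CPM in WT. In pif4 it was 9605 against 9133 and 8782 CPM. Library a was highest there in ELIP1 (140 and 148 CPM) but lowest in ELIP2 (2.98 and 4.56 CPM). Its light exposure sums were the lowest of their groups (8.50 and 13.4 CPM). The root and cotyledon sums were highest in library a in WT but not in pif4. The part of these values in the ELIP levels was not tested.

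Lists of genes that these proteins work with are given next, and each count is to be read beside the share of all genes called: 25.5% higher and 26% lower in WT, 25.6% and 24.1% in pif4, and with total counts 9.51% or 9.35% higher and 62% lower. Of 20 LHCB and LHCA antenna genes 13 rose and 2 fell in WT, with a median of 1.11, and 12 rose and 2 fell in pif4. With total counts as library size 5 were higher and 6 lower in WT, and 4 and 6 in pif4, so the balance of directions depends on the scaling. The largest rise was that of LHCB1.5 (AT2G34420, LHB1B2 in the annotation), from 120 ± 10.6 to 1233 ± 124 CPM in WT (3.37 ± 0.23), and the largest fall that of LHCB2.3 (AT3G27690), from 54.0 ± 4.85 to 2.82 ± 2.41 CPM (-4.30 ± 0.51, edgeR adjusted p = 6.42e-06). The LHCB2.3 value was -5.47 without library b of WT at 37 °C and -3.62 without library c. Genes of the LHCB1 and LHCB2 groups are near copies of each other, so their split is uncertain. Of the 6 partners and relatives (PSBS, FC1, FC2, HCF244, CHLP, CHLG), 2 rose in each genotype and none fell, a share near the 25.5% and 25.6% of all genes called higher. HCF244, the partner of the OHP pair, rose by 0.87 ± 0.17 in WT and by 0.44 in pif4 (adjusted p = 0.0331), where the call was lost with RLE factors, DESeq2 or only the groups compared and in 4 of the 12 cases with 1 library left out, at an adjusted p of up to 0.207. CHLP (AT1G74470), the reductase bound by LIL3, rose by 0.47 and 0.44. CHLP was named after its values were seen. Both calls were tied to the scaling, since with total counts none of the 6 was higher and 5 were lower in WT and 6 in pif4. HCF244 then stood at -0.15 in WT and -0.58 in pif4.

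In pigment synthesis the counts were mixed, and the same shares of all genes apply (25.5% higher and 26% lower in WT, 25.6% and 24.1% in pif4). Of 18 chlorophyll synthesis genes 9 rose and 2 fell in WT (median 0.36), and 8 rose and 4 fell in pif4. CRD1, a subunit of the cyclase of the pathway, rose from 317 ± 49.3 to 1650 ± 217 CPM in WT (2.38 ± 0.19), and PORA fell from 1307 ± 25.1 to 463 ± 174 CPM (-1.50 ± 0.23, adjusted p = 3.39e-05). The other WT fall, named after its value was seen, was that of CHLI2 (-0.92), a subunit of magnesium chelatase. With total counts 4 were higher and 10 lower in each genotype, beside 9.51% or 9.35% and 62% of all genes. Of 10 genes of carotenoid and tocopherol synthesis 3 rose and 1 fell in WT, the rises near the share over all genes, and 7 rose and none fell in pif4. BETA-OHASE 2, a carotene hydroxylase, rose by 3.61 ± 0.39 in WT, from 2.66 ± 1.49 CPM. G-TMT, the last methyltransferase of tocopherol synthesis, fell by 0.93 on the log2 scale in WT (adjusted p = 0.0421), a call that was lost in 5 of the 12 cases with 1 library left out, at an adjusted p of up to 0.157. With total counts 1 was higher and 5 lower in WT, and 2 and 4 in pif4.

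All 9 plastid proteases and chaperones rose in both genotypes, with a median of 3.04 in WT. HSP21, the plastid small heat shock protein, went from 0.253 ± 0.0418 to 10032 ± 802 CPM in WT (15.16 ± 0.27). It is also a member of the heat list. FTSH6, a thylakoid protease that in Arabidopsis acts on HSP21, had 0 reads in the 6 libraries at 22 °C and 16.7 CPM in WT at 37 °C, at least 269-fold higher against a floor of 3 reads over the group. With total counts 6 were higher and 1 lower in WT, and 6 and 2 in pif4. Of 13 light regulators known for control of ELIP or antenna genes, 8 rose and 1 fell in each genotype, beside 25.5% or 25.6% of all genes higher and 26% or 24.1% lower. HY5, a factor that activates ELIP genes in the light, rose from 9.45 ± 2.78 to 33.6 ± 4.90 CPM in WT (1.87 ± 0.27) and by 1.51 in pif4, and GLK1 (AT2G20570, GPRI1 in the annotation), an activator of antenna genes, fell by 1.52 on the log2 scale in WT (SE 0.38, adjusted p = 0.00229). With total counts 1 was higher and 5 lower in WT and 0 and 5 in pif4, beside 9.51% or 9.35% and 62% of all genes, and HY5 in pif4 stood at 0.49 (adjusted p = 0.0982).

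**Figure D4:**
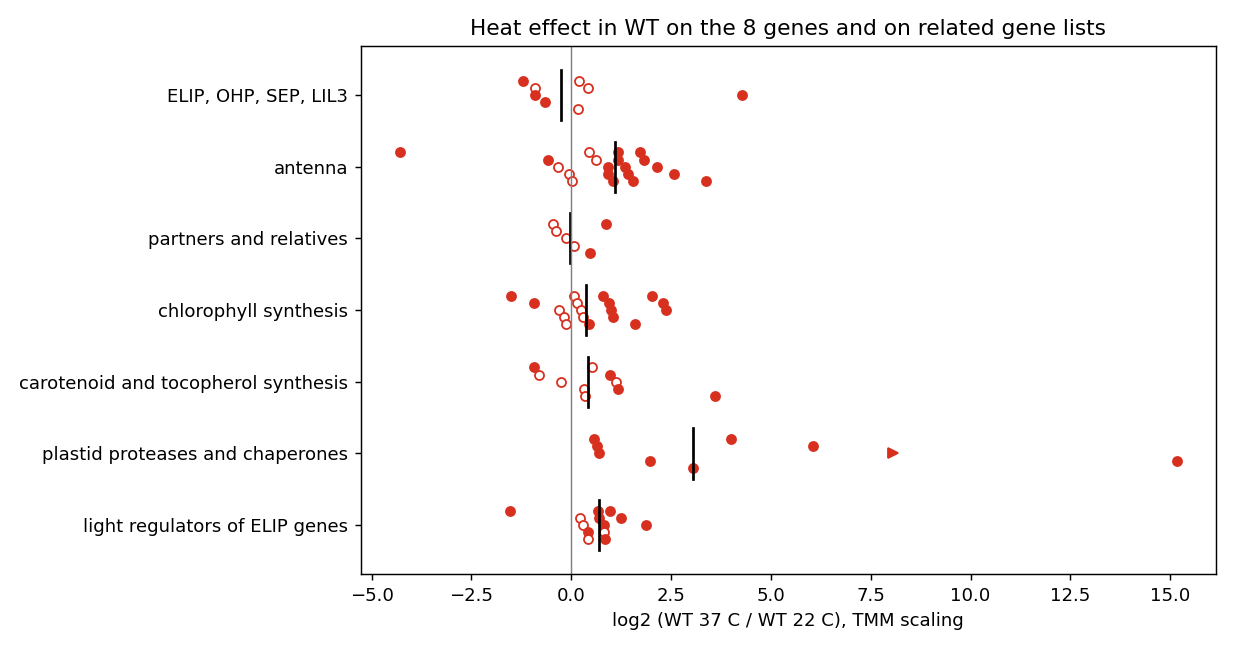
Heat effect in WT (horizontal axis, log2 of 37 °C over 22 °C with TMM scaling) on the 8 genes and on the members of 6 related lists. Each point is a gene, filled where called at an adjusted p under 0.05, the vertical bar is the median of the list, and the triangle is the lower bound for FTSH6, which had no reads at 22 °C. ELIP1 lies at 4.28, apart from the other 7 genes, and all 9 plastid proteases and chaperones lie above 0.

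Other markers moved with temperature as well. Their counts are to be read beside the same shares of all genes (25.5% higher and 26% lower in WT, 25.6% and 24.1% in pif4). Of 5 light exposure genes 4 were tested, and in WT none was higher and 2 were lower: FLS1, a flavonol synthase, had 0.735 ± 0.334 CPM unheated and 0 reads heated, at least 3.76-fold lower against the same floor, and lost its call in 3 of the 12 cases with 1 library left out (adjusted p up to 0.0555). TT5, a flavonoid pathway isomerase named after its value was seen, changed by -2.67. The summed level of the 5 was 14.9 to 17.0 CPM in WT at 22 °C and 8.50 to 11.6 CPM at 37 °C. In pif4 the sums overlapped, at 14.2 to 25.9 and 13.4 to 18.6 CPM, with 1 gene called higher (SIGE, 1.22, adjusted p = 0.0449, named after its value was seen) and FLS1 lower. The 4 root genes summed to 223 to 275.5 CPM and 57.9 to 81.2 CPM, with all 3 tested members lower, CASP2, of the root endodermis, by -3.17. The 3 cotyledon genes summed to 4231 to 4841 CPM at 22 °C and 7085 to 7524 CPM at 37 °C in WT. All 3 were called higher in WT and 2 in pif4. With total counts 1 was higher and 2 were lower in WT, and 0 and 2 in pif4. Of all genes 9.51% or 9.35% were then higher and 62% lower. The summed level of 5 seed storage and oil body genes lay higher in every library labelled pif4 than in WT at the same temperature, although none of the 4 tested was called between the genotypes at 22 °C or at 37 °C (medians 1.94 and 1.68). The sums lay at 47.3 to 263 CPM in WT and 457 to 670 CPM in pif4 at 22 °C and at 140 to 456 and 662 to 1230 CPM at 37 °C. Of 4 tested, OLEO2, an oil body protein gene, was called higher with heat in WT (1.22), though not with total counts (0.20, adjusted p = 0.595). The part of these markers in the 8 genes' values was not tested.

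The genes whose log2 levels followed each member most closely over the 12 libraries were found among the 13578 genes whose mean reached 5 CPM. These values are a description, since the libraries fall into groups by temperature and all points share them. ELIP1 was most like AT1G15670 (Pearson r = 0.996) and PYL4 (0.996), an abscisic acid receptor gene that went from 96.8 to 438 CPM in WT. ELIP2 was most like AT5G41920 (0.925) and ZFHD1 (0.916), a homeodomain factor gene. For OHP1 the closest were AT4G11175 (0.968) and HSK (0.963), which encodes homoserine kinase, and for OHP2 they were AT2G21340 (0.932) and AT1G54575 (0.887). SEP1 was followed by AT1G12230 (0.891) and AT1G51550 (0.890), and SEP2 by AT1G67900 (0.948) and AT2G26030 (0.9365). LIL3:1 had STRS1 (0.983), a gene for an RNA helicase, and AT4G17100 (0.971), and LIL3:2 had AT5G45510 (0.992) and AT4G12520 (0.990), which went from 189 to 14.4 CPM in WT.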

How the data were processed

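The table deposited by the authors gives whole read counts for each gene. TAIR10 is the build named per the submitters' processing notes, and the sources used here give neither aligner nor counter nor strand setting. Titles gave the groups, and column names tied 12 columns to them. Another 36 per-sample columns were not used: 12 hold length-corrected values of the same libraries, and 24 bear codes that could not be tied to a labelled line, so 7 of 12 designed comparisons were not run. Separate sowings are not stated for the replicates, so p-values cover only the spread among libraries, which may be technical. No library was a copy of another.

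Tests ran in edgeR 4.0.16 (R 4.3.3) on the counts of all 12 libraries, with filterByExpr, TMM scaling, a robust quasi-likelihood fit and no covariates. Calls needed an adjusted p (Benjamini-Hochberg, all genes tested) below 0.05. The SE is the log2 change over the root of F. DESeq2 1.42.0 was an alternative, as were total counts, RLE factors, other filters, a non-robust fit, fits of only the groups compared, a replicate block and leaving out each library. The script was tested on simulated counts. Of the identifiers, 32835 matched RefSeq's TAIR10.1, used for symbols, exon lengths and promoters. The table has no coordinates, so those printed are of TAIR10.1. Identity was taken over aligned coding bases with Biopython 1.88. Of each list, the called genes with the largest rise and fall in WT are named, and for likeness the 2 closest genes. The members and lists were chosen with earlier results of these data known.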

Additional observations from a re-analysis of the deposited data

How the results depend on the processing

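The calls of ELIP1, OHP1, LIL3:1 and LIL3:2 with heat kept their direction and their side of the threshold in both genotypes under every alternative run. ELIP2 kept its direction, and its call changed as given above. With total counts as library size all 8 members were called in WT and all 8 in pif4. Of all genes, 9.51% in WT and 9.35% in pif4 were then called higher, and 62% lower in each. OHP2 then turned to -0.82 (WT) and -0.77 (pif4), SEP1 to -0.86 and -0.89, SEP2 to -0.60 and -0.62, HCF244 to -0.15 and -0.58, and PIF4 in pif4 to -0.68.

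The number of genes called between pif4 and WT depended on the method. At 22 °C it was 8 with total counts, 52 with no filter on low counts, 48 with a non-robust fit, 6 with only the groups compared and 91 with DESeq2. At 37 °C it was 76 with no filter and 159 with DESeq2, and for the interaction of heat and genotype it was 2 with either. With 1 library left out it ranged from 3 to 40, from 2 to 18 and from 0 to 1. The letters were not taken as pairs, since over 18 pairs of libraries with the same letter the correlation of deviations from group means ran from -0.0833 to 0.258, with 4 over 0.1. Those 4 were among the 6 pairs of a libraries, all positive (0.0786 to 0.258), and 9 of 12 libraries correlated best with one of their own letter, a hint from the data and not the design. With the letters as a replicate block, 27 genes were called at 22 °C and 55 at 37 °C, and the member calls stayed at 4 and 5. The cause of these shifts was not tested.

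Uncalled values near 0 changed sign. SEP1 between pif4 and WT at 37 °C was 0.0085 with no filter and 0.00032 with at least 10 reads in 3 libraries. With 1 library left out, the heat value of OHP2 in WT ranged from -0.014 to 0.34. Between pif4 and WT at 22 °C, ELIP2 ranged from -0.32 to 0.80 and OHP2 from -0.077 to 0.15. At 37 °C the ranges were -0.027 to 0.22 for ELIP1, -0.088 to 0.29 for ELIP2, -0.26 to 0.34 for OHP1, -0.032 to 0.32 for OHP2, -0.10 to 0.068 for SEP1 and -0.29 to 0.11 for LIL3:1. For the difference between the heat effects they were -0.86 to 0.12 for ELIP1, -0.71 to 0.41 for ELIP2, -0.47 to 0.13 for OHP1, -0.074 to 0.28 for OHP2, -0.13 to 0.044 for SEP1 and -0.11 to 0.083 for SEP2. The alternative that separates the line codes was not run. Depth limits ELIP2 most, with as few as 7 reads in a library.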
